A study of Mus musculus with 44 samples.

Results

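The 7 Id and E protein genes of the mouse, Id1, Id2, Id3, Id4, Tcf3, Tcf4 and Tcf12, were followed in HPC7 cells, a mouse line of blood progenitors, for methylation of histone H3 on lysine 4 at their start sites and for nearby Snai1 peaks. They were chosen by name as the Id family and its partners, and each has 1 of the 27095 start-site windows of the count table. All 7 windows had enough reads to be tested in every comparison. A retroviral MSCV-IRES-GFP vector brought in wild-type Snai1, mutant Snai1 or no gene (empty vector). The mutant has alanine in place of phenylalanine at residue 5, which impairs its contact with the demethylase Lsd1. Cells of all 3 kinds, controls included, grew in 100 ng/ml mouse stem cell factor and were sorted for GFP 1 week after transduction, then expanded, so the added Snai1 came from a virus. Each construct had 3 libraries of H3K4me2 and 3 of H3K4me1, and IgG was sequenced in 2 libraries, for wild-type Snai1 alone. The Snai1 ChIP libraries are labelled technical replicates, and 1 peak list per construct was used.

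E proteins (Tcf3, which encodes E2A, Tcf4, which encodes E2-2, and Tcf12, which encodes HEB) are basic helix-loop-helix factors that bind E-box DNA as dimers and drive lymphoid and other blood programmes, often with Tal1 or Lyl1. Id proteins have the helix-loop-helix but no basic region, so they pair with E proteins and keep them off DNA. Snai1, a zinc finger repressor, recognises a subset of E-boxes, CAGGTG and its reverse complement CACCTG. H3K4me2 and H3K4me1 mark active or poised promoters and enhancers, and both are substrates of Lsd1.

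The bases just upstream of 4 annotated starts are shown for Id2, which differed most between constructs, Id4, the least methylated, Id3, which varied with the replicate, and Tcf3, which had peaks in both Snai1 lists. They are the 250 bases before the start from RefSeq (GRCm38.p6), 5′ to 3′, with any E-box (CANNTG) in capitals. For Tcf3 this start, at 80433635, lies inside the annotated gene, whose upstream end is at 80433976, so the stretch shown is within the gene. Distances of peaks below are from the annotated gene ends.
Id2 (chr12:25096093-25096342, minus strand): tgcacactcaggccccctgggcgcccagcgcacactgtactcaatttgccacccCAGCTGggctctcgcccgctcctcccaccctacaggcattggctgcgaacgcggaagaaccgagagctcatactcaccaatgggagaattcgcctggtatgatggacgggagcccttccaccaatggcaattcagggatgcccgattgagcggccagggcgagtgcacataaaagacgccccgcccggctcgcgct
Id3 (chr4:136143572-136143821, plus strand): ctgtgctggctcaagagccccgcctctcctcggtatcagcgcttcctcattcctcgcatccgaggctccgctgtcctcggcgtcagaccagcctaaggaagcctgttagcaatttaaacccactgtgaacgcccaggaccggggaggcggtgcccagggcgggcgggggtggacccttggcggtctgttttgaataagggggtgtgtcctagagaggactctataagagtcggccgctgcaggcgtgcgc
Id4 (chr13:48260866-48261115, plus strand): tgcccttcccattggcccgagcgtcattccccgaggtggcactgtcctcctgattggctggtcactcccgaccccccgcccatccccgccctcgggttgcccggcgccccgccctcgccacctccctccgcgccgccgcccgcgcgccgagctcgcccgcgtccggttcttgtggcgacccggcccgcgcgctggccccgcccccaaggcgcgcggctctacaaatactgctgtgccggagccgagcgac
Tcf3 (chr10:80433636-80433885, minus strand): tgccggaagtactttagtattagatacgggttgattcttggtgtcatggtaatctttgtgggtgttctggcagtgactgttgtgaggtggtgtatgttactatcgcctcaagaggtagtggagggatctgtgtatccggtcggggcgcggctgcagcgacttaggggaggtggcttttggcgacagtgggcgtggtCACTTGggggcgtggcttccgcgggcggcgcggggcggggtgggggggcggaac
The RefSeq table gave promoters for Id2, Id3, Id4, Tcf3 and Tcf12. From 250 bases before to 50 after the start, searched on both strands, none of them held CAGGTG or CACCTG, which 20.2% of 32851 promoters in the table hold. The palindrome CAGCTG, held by 16.3% of promoters, began at position -196 from the Id2 start and at position -240 from 1 of the 3 Tcf12 starts. Any CANNTG, which includes the other 2 motifs, was in 72.3% of promoters, and was found at Id2, Tcf3 and Tcf12 but not at Id3 or Id4. These are matches of letters only.

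Library totals ran from 8694515 to 18199945 reads for H3K4me2 and from 4042976 to 8813537 for H3K4me1, and were 3355479 and 2714255 for IgG. Replicate 1 of each construct stood apart in both marks: its variance against replicate 2 or 3 was 9.49 to 17.7 times that of counting, over 12 pairs, while replicates 2 and 3 differed by 0.980 to 2.30 times, over 6 pairs. The 2 IgG libraries, on which all comparisons with IgG rest, differed by 5.54 times. The 2 empty-vector H3K4me1 libraries at 0.980 were counted as 1 sample. Those of wild type and mutant in H3K4me1, at 1.18 and 1.28 times, were kept as separate samples. Replicate 1 therefore weighs more in the empty-vector H3K4me1 mean than in the means of the other constructs. The H3K4me1 differences from empty vector in the fit thus mix construct with replicate set. The labels do not say whether replicates were separate cultures, so p-values measure the spread between these libraries, which may be technical. Against the labelled cell type, 13 of 15 progenitor markers were above IgG in each mark, against 1 of 20 markers of other cells in H3K4me2 (Pdgfrb).

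With wild-type Snai1, Id1, Id2, Tcf3, Tcf4 and Tcf12 carried H3K4me2 above IgG, Id4 lay far below IgG in both marks, and Id3 was not separated from IgG by the test. For H3K4me2, 5 members were higher and 1 lower (edgeR quasi-likelihood test on column totals, adjusted p under 0.05), where 36.1% of 26313 windows were higher and 55.7% lower, 91.8% in all. For H3K4me1, 3 were higher and 1 lower, where 27.7% of 26166 windows were higher and 48.4% lower, 76.1% in all. The median window stood at -1.92 (H3K4me2) and -0.44 (H3K4me1) on the same log2 scale. Scaling by TMM in place of column totals moved that median up by 0.98 and 0.51, and higher windows then made up 49.7% of the H3K4me1 calls in place of 36.4%.

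Id2, which encodes the Id protein best known in lymphoid and dendritic lineages, had 122, 133 and 134 CPM of H3K4me2 on column totals, against 40.3 and 29.9 CPM of IgG. Every mark library was above both IgG libraries, by 1.88 ± 0.17 (log2, SE; adjusted p = 4.37e-07 in edgeR). Its H3K4me1 was 85.3, 72.7 and 70.7 CPM, a difference of 1.12 ± 0.18 (adjusted p = 0.000234). Id1, a target of BMP signalling through SMAD proteins, had 92.4, 91.5 and 85.4 CPM of H3K4me2 and 94.6, 82.6 and 77.9 CPM of H3K4me1, against 31.6 and 26.2 CPM of IgG. That is 1.63 ± 0.14 and 1.55 ± 0.18 above IgG in log2, nearly equal in both marks.

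Id4, an Id gene best known from neural and germ cells, had 2.17, 1.83 and 1.48 CPM of H3K4me2 and 3.45, 2.97 and 2.41 CPM of H3K4me1, against 29.8 and 28.8 CPM of IgG. Its mark libraries were all below both IgG libraries, by a log2 difference of -3.97 ± 0.29 in H3K4me2 and -3.29 ± 0.30 in H3K4me1. The H3K4me2 values rest on 15 to 38 reads each. Id3, an Id gene with roles in lymphocyte development, had 28.0, 13.8 and 12.3 CPM of H3K4me2 in replicates 1, 2 and 3 and 73.0, 26.9 and 31.1 CPM of H3K4me1, against 33.4 and 27.6 CPM of IgG. Replicate 1 was the high library in both marks. The differences of -0.75 ± 0.35 (adjusted p = 0.0589) in H3K4me2 and 0.53 ± 0.38 (adjusted p = 0.228) in H3K4me1 did not pass. Single libraries decided these calls: without replicate 1 Id3 was lower than IgG in H3K4me2 (-1.23, adjusted p = 4.25e-05, edgeR), and without replicate 2 or 3 it was higher in H3K4me1 (0.78, adjusted p = 0.0210, and 0.72, adjusted p = 0.0306).

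The 3 E protein genes passed in H3K4me2, and of them only Tcf3 passed in H3K4me1 on column totals. Tcf3 had 77.8, 88.7 and 78.9 CPM of H3K4me2 and 91.0, 115 and 112 CPM of H3K4me1, against 58.4 and 35.8 CPM of IgG, and passed in both marks (0.78 ± 0.18 and 1.16 ± 0.23). Its size depended on the IgG library: the H3K4me2 difference of Tcf3 was 1.19 without IgG replicate 1 and 0.48 without IgG replicate 2, and passed in each case. Tcf4 had 99.3, 79.1 and 79.9 CPM of H3K4me2 and 60.8, 49.5 and 55.7 CPM of H3K4me1, against 48.3 and 49.8 CPM of IgG. Tcf12 had 77.4, 78.7 and 66.4 CPM of H3K4me2 and 36.3, 45.4 and 42.8 CPM of H3K4me1, against 40.0 and 36.1 CPM of IgG. Tcf4 and Tcf12 passed in H3K4me2 (0.82 ± 0.15 and 0.96 ± 0.14) and not in H3K4me1 (0.18 ± 0.16 and 0.12 ± 0.17). The table has 1 window per gene, and which of several starts of Tcf4 and Tcf12 it covers is not given. The calls for Id3, Tcf4 and Tcf12 in H3K4me1 depend on scaling: with TMM they passed, at 1.02, 0.68 and 0.63, so that all 7 members were called there, and the H3K4me2 difference of Id3 turned to 0.22. Most windows were called in H3K4me1 with TMM: of 26166 tested, 11177 were higher and 11292 lower.

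**Figure D1:**
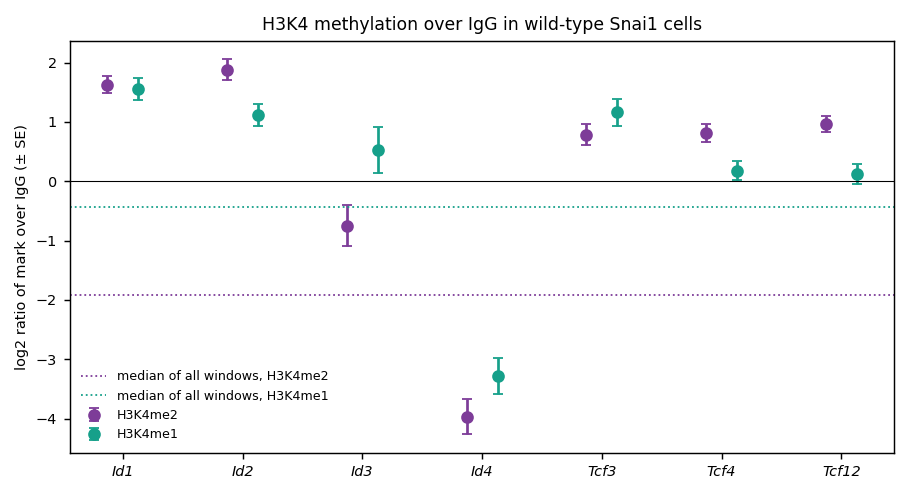
Log2 ratio of each mark over IgG in wild-type Snai1 cells (3 mark and 2 IgG libraries, column totals), with SE, for the 7 genes; dotted lines give the median of all windows. Id4 lies at -3.97 and -3.29, below the median of each mark, and the other 6 genes lie above it.

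The comparison of constructs asks whether Snai1, or its contact with Lsd1, goes with a change of methylation at these genes. No member passed in any of the 6 comparisons with edgeR, in which 0.00388% (1 of 25742 windows, H3K4me2 of wild type set against empty vector) or 0% of windows passed. Unadjusted p under 0.05 was reached in H3K4me2 by 7.32% of windows for wild type and by 4.95% for mutant set against empty vector, and by 9.9% between both Snai1 forms. In H3K4me1 these shares were 2.88%, 1.61% and 5.24%. Among the members Id2 alone reached it, in both H3K4me2 comparisons with the empty vector. DESeq2 also called no member. With the replicate number as a block, no member passed, and 5 windows passed in H3K4me2 for wild type against empty vector in place of 1.

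Libraries of 2 constructs seldom separated fully at these genes. In H3K4me2, 1 member (Id2) was above in all 3 wild-type libraries relative to empty vector and 1 (Id1) below, against 6.25% and 6.73% of windows of at least 1 CPM. Mutant and empty vector separated at 0 members, against 4.9% of windows above and 1.94% below. Wild type was below mutant at 2 members (Id1 and Id4), against 6.31% of windows, and above at 0, against 2.89%. In H3K4me1 no member separated, against 4.15% above and 6.62% below (wild type and empty vector), 4.87% and 3.07% (mutant and empty vector) and 2.83% and 5.88% (wild type and mutant).

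Of the 7 genes, Id2 differed most from empty vector in H3K4me2. Its H3K4me2 was 122, 143 and 139 CPM (TMM-scaled, replicates 1, 2 and 3) with wild-type Snai1, 130, 100 and 102 CPM with mutant Snai1, and 112, 71.6 and 69.5 CPM with empty vector. All wild-type libraries were above all empty-vector libraries, while mutant libraries overlapped both groups. The log2 difference was 0.67 ± 0.17 (SE) for wild type against empty vector (adjusted p = 0.446 in edgeR). It was 0.39 ± 0.17 (adjusted p = 0.952) for mutant against empty vector, and 0.28 ± 0.17 (adjusted p = 0.515) for wild type against mutant.

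The H3K4me2 difference of Id2 from empty vector was larger within replicates 2 and 3 than within replicate 1. Within replicate 1 the log2 ratio (CPM with 0.5 added) was 0.13 for wild type against empty vector and 0.22 for mutant against empty vector. Within replicates 2 and 3 it was 1.00 and 0.51. Without empty-vector replicate 1, Id2 passed in both (0.93, adjusted p = 0.00296, and 0.65, adjusted p = 0.0342, edgeR), but then the empty vector is represented only by replicates 2 and 3 while the other constructs keep replicate 1, and construct and replicate set cannot be told apart. Its H3K4me1 was 84.1, 76.0 and 71.3 CPM with wild type, 114, 42.9 and 51.7 CPM with mutant, and 92.3, 42.8 and 37.9 CPM with empty vector. The H3K4me1 ratio of wild type to empty vector was -0.13 within replicate 1 and 0.86 within replicates 2 and 3. It was 0.23 ± 0.41 (adjusted p = 0.9999, edgeR) in the fit, where replicate 1 weighs more in the empty vector. With all libraries weighted equally it was 0.42.

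**Figure D2:**
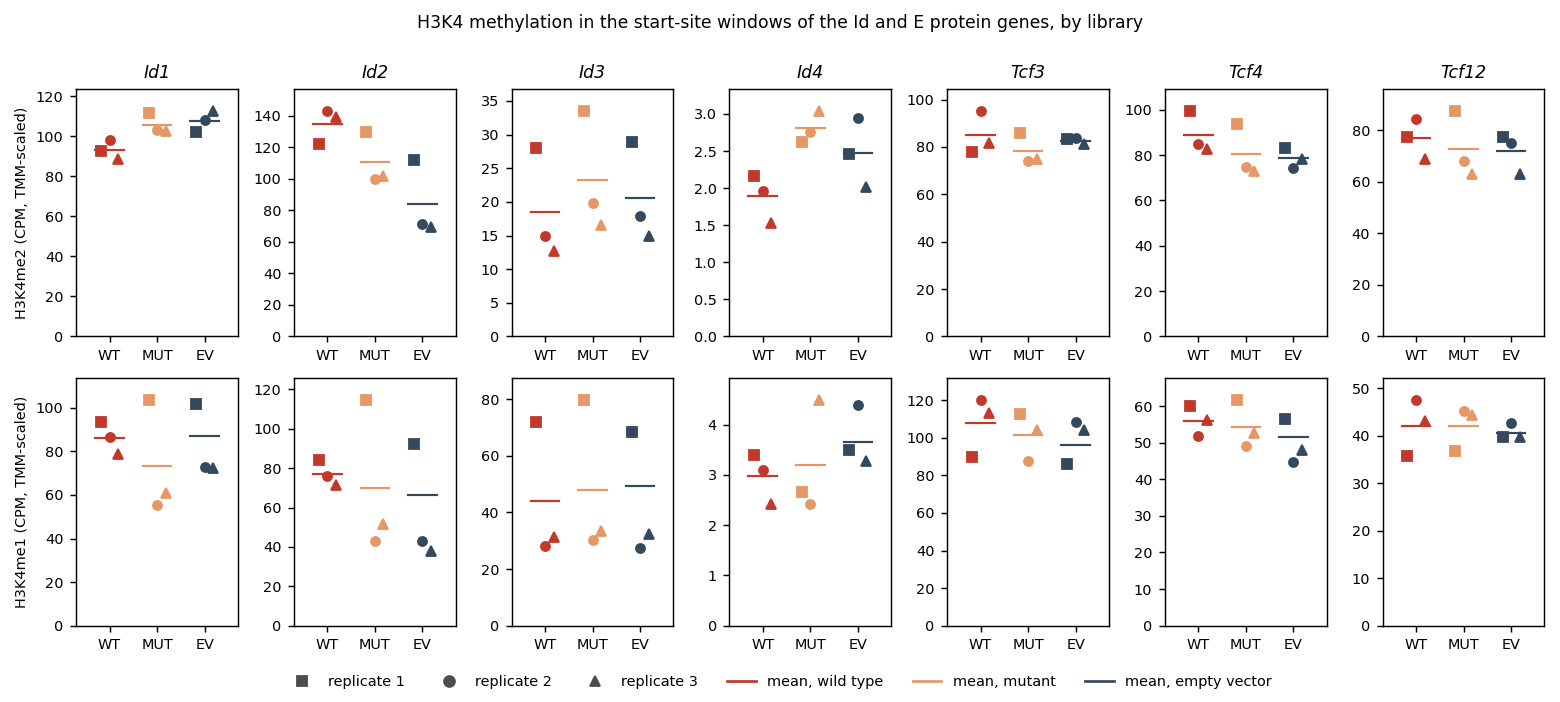
H3K4me2 (top) and H3K4me1 (bottom) in CPM for each library of the 7 genes, by construct; squares, circles and triangles are replicates 1, 2 and 3 and lines are means (for empty-vector H3K4me1, of replicate 1 and the mean of replicates 2 and 3). Id2 H3K4me2 is 122 to 143 CPM with wild type and 69.5 to 112 CPM with empty vector, and Id3 is highest in replicate 1 of each construct.

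Chromosome 12, which carries Id2, had raised ratios in replicates 2 and 3 over many of its windows. How far Id2 stood from its chromosome depended on which windows set the median. Over the 950 chromosome 12 windows of at least 1 CPM the median H3K4me2 ratio of wild type to empty vector in replicates 2 and 3 was 0.32, which leaves Id2 0.67 higher. Over the 407 windows of at least 20 CPM it was 0.76, which leaves Id2 0.24 higher, at the 92.1 percentile of these windows. Minimums of 0.3, 1, 5, 20 and 50 CPM were compared after the values were seen, and gave medians of 0.31, 0.32, 0.72, 0.76 and 0.76.

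For mutant against empty vector the choice mattered little: the chromosome 12 median was 0.51 at 1 CPM and 0.49 at 20 CPM, beside 0.51 for Id2. For wild type against mutant it changed sign, with -0.068 at 1 CPM and 0.24 at 20 CPM, beside 0.48 for Id2. Over windows of all chromosomes the medians changed sign with the minimum in all 3 comparisons. They were -0.016 at 1 CPM and 0.086 at 20 CPM (wild type and empty vector), 0.059 and -0.11 (mutant and empty vector), and -0.093 and 0.22 (wild type and mutant). Within replicate 1 the chromosome 12 median was -0.00054 at 1 CPM and -0.0036 at 20 CPM for wild type against empty vector. Id2 lay 0.13 above each, at the 78.5 and 93.6 percentiles of these windows. In H3K4me1 in replicates 2 and 3, the chromosome 12 median was 0.31 at 1 CPM and 0.66 at 20 CPM for wild type against empty vector, beside 0.86 for Id2. For mutant against empty vector it was 0.43 and 0.48, beside 0.23 for Id2, which thus lay below its chromosome by a difference of -0.20 at 1 CPM and -0.25 at 20 CPM. For wild type against mutant it was -0.010 and 0.16, beside 0.63 for Id2. Within replicate 1 the ratio of wild type to mutant had the other sign at Id2. It was -0.44 in H3K4me1, beside chromosome 12 medians of -0.030 at 1 CPM and -0.18 at 20 CPM. In H3K4me2 it was -0.090, beside -0.010 and -0.094. With the chromosome medians taken out in the fit, the H3K4me2 difference of Id2 between wild type and empty vector was 0.40 at 1 CPM and 0.22 at 20 CPM. The 5 windows of at least 20 CPM within 1 Mb of Id2 had a median of 0.88 in replicates 2 and 3, from 0.26 to 1.25, and 3 of them lay below Id2. Within replicate 1 their median was 0.031, and all 5 lay below Id2. What shifts the chromosome was not tested.

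**Figure D3:**
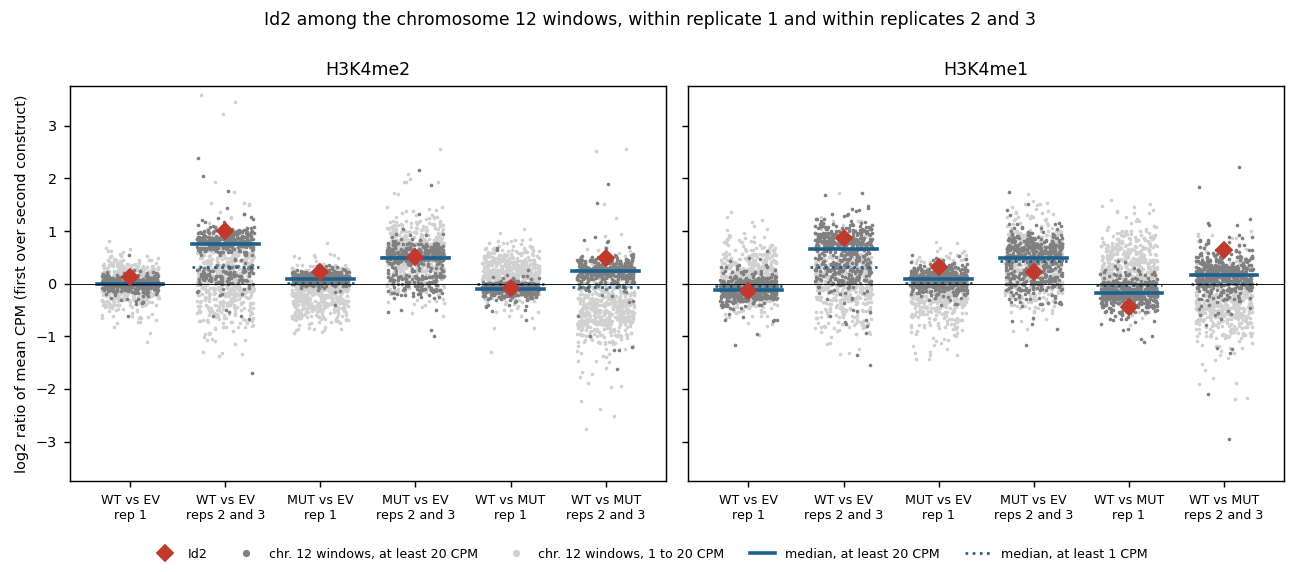
Log2 ratio of mean CPM between constructs for Id2 (diamond) and the chromosome 12 windows of at least 1 CPM (dots, dark from 20 CPM), within replicate 1 and within replicates 2 and 3; lines are medians. In replicates 2 and 3 the H3K4me2 median for wild type against empty vector is 0.76 from 20 CPM and 0.32 from 1 CPM, beside 1.00 for Id2.

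Id2 also shared its pattern over libraries with its chromosome. Over the 18 methylation libraries, centred within each mark, the 3 most alike of 14776 windows were Gpx2 (r = 0.977), Foxa1 (r = 0.967) and Trib2 (r = 0.967), all on chromosome 12. Of the 50 most alike, 18 were on chromosome 12, which holds 3.34% of windows. For Tcf4, 14 of 50 were on its chromosome 18, which holds 2.33%. For the other members 0 to 3 of 50 were on their own chromosome. The windows most like the others were Btn1a1, Erf and 1810010H24Rik for Id1 (r = 0.928 to 0.935), Slc9a5, Fhod1 and Gm16010 for Id3 (r = 0.963 to 0.972), Srgap3, Cox5b and Jpt1 for Tcf3 (r = 0.907 to 0.910), Gm10433, Trerf1 and Rmc1 for Tcf4 (r = 0.907 to 0.916) and Spata5, Wasl and Nudt6 for Tcf12 (r = 0.871 to 0.891). For Id4, which is under the 5 CPM minimum set for these windows, they were Asb10, Slc8a2 and Itih4 (r = 0.713 to 0.745). The 18 points share antibodies within a mark and differ in depth, and the correlations are descriptions.

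Id1 ran the other way in H3K4me2. It had 92.5, 98.2 and 88.6 CPM with wild type, 112, 103 and 102 CPM with mutant, and 102, 108 and 113 CPM with empty vector. The wild-type libraries were below all libraries of both other constructs. The differences were small, -0.21 ± 0.10 against empty vector (adjusted p = 0.682, edgeR) and -0.18 ± 0.10 against mutant (adjusted p = 0.508). Within replicate 1 they were -0.14 and -0.27, and within replicates 2 and 3 they were -0.24 and -0.14. Chromosome 2, which carries Id1, was itself lower with wild type than with mutant in replicates 2 and 3, with a median of -0.28 over windows of at least 1 CPM and -0.035 over those of at least 20 CPM. With chromosome medians taken out in the fit, the Id1 difference from mutant was -0.018 at 1 CPM and -0.13 at 20 CPM, and that from empty vector was -0.18 and -0.24. Id1 H3K4me1 was 93.3, 86.4 and 78.6 CPM with wild type, 103, 55.4 and 60.9 CPM with mutant, and 102, 72.6 and 72.3 CPM with empty vector, and these overlapped. The H3K4me1 ratio of wild type to mutant was -0.15 within replicate 1 and 0.50 within replicates 2 and 3. In the latter the chromosome 2 median was -0.26 at 1 CPM and -0.097 at 20 CPM. Against empty vector the Id1 ratio was -0.13 and 0.19.

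Id4 was also lower with wild type than with mutant in every H3K4me2 library, at 2.17, 1.97 and 1.53 CPM against 2.62, 2.76 and 3.04 CPM (-0.54 ± 0.25, adjusted p = 0.505), with 2.46, 2.94 and 2.02 CPM with empty vector. These values come from 15 to 45 reads in a window far below IgG.

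Id3 separated by replicate, and no difference between constructs passed. In H3K4me2, replicate 1 had 28.0, 33.5 and 28.9 CPM with wild type, mutant and empty vector, and replicates 2 and 3 had 12.8 to 19.8 CPM. In H3K4me1, replicate 1 had 68.5 to 79.6 CPM and replicates 2 and 3 had 27.4 to 33.5 CPM. All 3 replicate 1 libraries were above the other 6 in both marks, as were 7.3% of windows in H3K4me2 and 12.6% in H3K4me1. No member was below in replicate 1 in this way, against 7.33% and 9.84% of windows. The ratios of 0.88 and 1.25 in log2 lay at the 99.6 and 99.7 percentiles of windows. In H3K4me1, Id1, Id2 and Tcf4 were also above in replicate 1, by 0.48, 0.84 and 0.23. Relative to empty vector, Id3 H3K4me2 differed by -0.14 ± 0.35 with wild-type and by 0.18 ± 0.35 with mutant Snai1 (log2, SE). Between both Snai1 forms the difference was -0.32 ± 0.35.

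The E protein genes had no call between constructs. In H3K4me2 Tcf3 averaged 85.0 ± 9.04 CPM with wild type, 78.3 ± 6.58 with mutant and 82.7 ± 1.38 with empty vector (SD, n = 3 libraries each). Tcf4 averaged 89.0 ± 9.02, 80.5 ± 11.5 and 78.6 ± 4.34 CPM, and Tcf12 averaged 76.9 ± 7.80, 72.9 ± 12.9 and 71.9 ± 7.85 CPM, in the same order. Their log2 differences ran from -0.079 to 0.18 in H3K4me2 and from 0.0011 to 0.16 in H3K4me1, with SE of 0.11 to 0.21. The highest, 0.18, was Tcf4 for wild type against empty vector. Within replicate 1 that ratio was 0.26, beside a chromosome 18 median of 0.12 at 1 CPM and 0.11 at 20 CPM. Within replicates 2 and 3 it was 0.13, beside -0.048 and 0.071. What shifts chromosome 18 was not tested.

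Other genes of the pathway, in lists chosen with earlier results known, gave no call either. Of 39 partners and complex members, 27 E protein targets, 31 BMP and SMAD genes and 26 other E-box factors, 0 passed in each of the 6 comparisons with edgeR. At an unadjusted p under 0.05 there were 3, 8, 3 and 4 of them in H3K4me2 for wild type against empty vector, in that order, where 7.32% of all windows reached it. The median log2 difference of each list there was -0.086, 0.048, 0.020 and 0.086, beside -0.0059 over all windows. In H3K4me2 for wild type against mutant, 10 of the 39 partners had a positive and 29 a negative difference, with a median of -0.31 beside -0.042 over all windows, and 6 had an unadjusted p under 0.05, where 9.9% of all windows had one. Most partners had little H3K4me2: over IgG their median was -3.41, beside -1.92 over all windows, and 28 were lower. The median of all windows for wild type against mutant in replicates 2 and 3 was -0.093 at 1 CPM and 0.22 at 20 CPM. Whether the negative differences of the partners go with their low signal was not tested. Named next is the gene with the smallest p in each list and mark, none of which passed. In H3K4me2 these were Lmo2, a bridging factor of E protein complexes (12.7 to 66.8 CPM with mutant against 12.8 to 19.0 CPM with empty vector, 1.55 ± 0.47), Hes1 (68.3 to 101 CPM with wild type against 53.2 to 63.0 CPM with empty vector, 0.61 ± 0.14), the BMP receptor Acvr1 (44.5 to 62.4 CPM with mutant against 33.3 to 39.6 CPM with empty vector, 0.63 ± 0.16) and Snai3 (29.9 to 54.5 CPM with wild type against 60.7 to 71.1 CPM with mutant, -0.73 ± 0.18). In H3K4me1 they were Lmo1 (-1.30 ± 0.40, wild type against mutant), Il7r (-1.64 ± 0.44, wild type against empty vector), Smad5 (0.29 ± 0.17, wild type against mutant) and Scrt2 (-0.74 ± 0.20, wild type against mutant). Lmo2 and Acvr1 lie on chromosome 2, whose H3K4me2 median for mutant against empty vector was 0.16 over windows of at least 1 CPM and 0.095 over those of at least 20 CPM.

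More members had a Snai1 peak nearby in the mutant list than in the wild-type list, as did more genes in general. Within 50 kb of an annotated end there were peaks at 2 members in the wild-type list (Id3 and Tcf3), at 5 in the mutant list (Id1, Id2, Id3, Tcf3 and Tcf4) and at 0 in the empty-vector list. Of all 25173 genes with coordinates, 25.1%, 56.0% and 1.76% had such a peak. The lists hold 2929, 12037 and 137 peaks, each from 1 pooled call with no replicate check, so the difference between them cannot be tested. Within 5 kb the wild-type list had a peak at 0 members, against 7.81% of genes, and the mutant list at the same 5, against 28.4%. Within 100 kb the wild-type list reached 4 members (Id1, Id2, Id3 and Tcf3), against 36.2% of genes. Id4 and Tcf12 had no peak within 50 kb in any list. Fold enrichments are the authors' own values from MACS2.

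At Tcf3, a site 12.3 kb past the annotated end on the upstream side (chr10:80446308-80446635, GRCm38) had 12.7-fold enrichment in the wild-type list, at the 93.3 percentile of that list, and an overlapping peak had 7.46-fold in the mutant list. A site beyond the other end (chr10:80399656-80399864) had 5.23-fold in the wild-type list and 7.56-fold in the mutant list. The mutant list alone had a peak whose summit lay at -580 from the start shown above, at 3.38-fold and the 3.57 percentile of that list. Its other 3 peaks there, at 5.83 to 6.12-fold, were 2.60 to 10.5 kb from the gene. Of these, the 6.12-fold peak overlapped Mbd3 and the 5.92-fold peak overlapped Uqcr11. Near Id3, 3 sites 31.8 to 33.3 kb past the gene lay inside E2f2, a cell cycle factor gene, with 6.90, 6.90 and 3.73-fold in the wild-type list and 7.87, 12.8 and 12.8-fold in the mutant list. A further 2 mutant peaks in E2f2 had 4.77 and 4.67-fold.

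The other peaks were in the mutant list. Id1 had 5.54-fold inside the gene (chr2:152736278-152736623) and 5.77-fold at 4.11 kb. It also had 4.44-fold at 49.0 kb, overlapping H13 and Mcts2, and 7.07-fold at 43.9 kb, overlapping Bcl2l1. Id2 had 5.84-fold at 617 bases past its 3′ end (chr12:25092908-25093182), with a summit 3040 bases downstream of the start, and 4.01-fold at 9.05 kb. Id3 had 3.97-fold inside the gene, and Tcf4 had 5.25-fold inside the gene. The list median was 5.54-fold, and the peaks inside Id1, Id3 and Tcf4 and beside Id2 stood at the 10.6 to 58.4 percentiles.

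**Figure D4:**
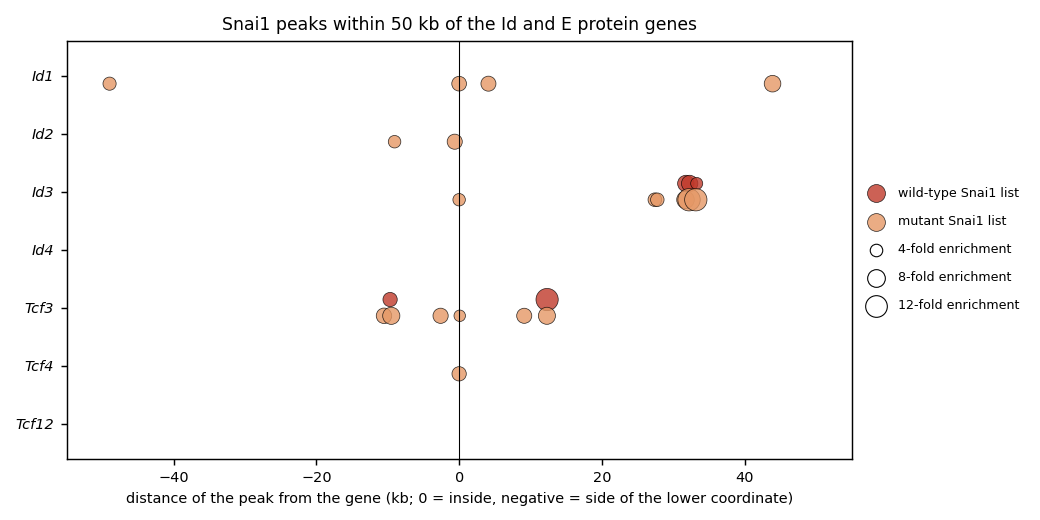
Snai1 peaks within 50 kb of each gene, by distance from the gene in kb (0 is inside, negative is the side of the lower coordinate); dot area gives fold enrichment, red the wild-type and orange the mutant list. Peaks of the wild-type list stand at Id3 and Tcf3 only, and the mutant list has peaks at 5 of the 7 genes.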

How the data were processed

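Reads of H3K4me1, H3K4me2 and IgG were deposited by the authors as raw counts in windows around transcription start sites, made with Subread and featureCounts per the submitters' processing notes; versions are not given in the sources used here. The table's name states 5 kb windows, and it holds no coordinates. Snai1 peaks were called with MACS2, per the submitters' processing notes, and the deposited lists give fold enrichment, a ratio over local background, and -log10 q. Coordinates are on GRCm38 (also called mm10), per the submitters' processing notes.

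Of 27095 windows, 25204 matched a RefSeq symbol, and 27044 were used after leaving out rows with no read (20) or equal to an earlier row (50), some of them both. Counts were tested per mark over all 3 constructs with edgeR 4.0.16 (R 4.3.3; quasi-likelihood F-test, TMM, filterByExpr, two-sided, Benjamini-Hochberg over all windows tested, threshold 0.05), and over IgG on column totals. DESeq2 1.42.0 was an alternative. Empty-vector H3K4me1 replicates 2 and 3 were summed. The script was tested on simulated data. Numbers shared by constructs were checked for pairing, by the deviation of each library from the mean of its construct. Deviations of same-numbered libraries correlated at 0.21 to 0.61 for both constructs against the empty vector. For wild type against mutant they correlated at 0.00019 to 0.28. Replicate 1 stood apart in every construct, which by itself can make these correlations positive, and differently numbered libraries were not compared. The check therefore cannot tell whether replicates 2 and 3 are paired by number.

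Members and lists were chosen with earlier results of these data known. All members are named, as are the 3 windows most like each, every peak within 50 kb, and per list and mark the gene with the smallest p. CPM and folds within replicate sets are descriptions. The H3K4me1 count of other-cell markers is not reported here. Promoters come from RefSeq, GRCm38.p6. Counting error aside, precision is set by 2 or 3 libraries per group. Python 3.11.15 with pandas 2.3.3 was used.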

Additional observations from a re-analysis of the deposited data

How the results depend on the processing

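Members passing between constructs stayed at 0 with other scaling, no filter, DESeq2, the replicate block, a batch term, either chromosome correction and only 2 constructs. Leaving out 1 replicate gave 0 to 1 members in H3K4me2 for wild type and for mutant against empty vector (Id2, without empty-vector replicate 1) and 0 in the other 4 comparisons. Over all windows the number passing was 1, 0, 0, 0, 0 and 0 (H3K4me2 then H3K4me1, each with wild type over vector, mutant over vector and wild type over mutant), but 88, 8, 72, 4, 0 and 32 with DESeq2, 89, 19, 117, 22, 1 and 19 with a batch term, and 5, 0, 12, 0, 0 and 6 with the replicate block. The block changed no call of a member between constructs. Over IgG, where pairing by number was not checked, the block brought Id3 in H3K4me1 past the threshold (0.60, adjusted p = 0.0141, edgeR). A fit on replicates 2 and 3 only, as separate samples, was added after the data were seen and is not used. The labels do not call these libraries separate cultures, and their variance was 0.980 to 2.30 times that of counting, highest in wild-type H3K4me2. The fit on replicates 2 and 3 passed 2, 1, 5, 1, 1 and 3 members and 6062, 8437, 15022, 8818, 7762 and 10980 windows. Taking out chromosome medians at 20 CPM was also added after the data were seen. Over IgG, TMM passed 7 members in H3K4me1 in place of 4, with 22469 of 26166 windows passing in place of 19919. Leaving out a replicate passed 6 to 7 members in H3K4me2, with 23122 to 24293 windows, and 4 to 5 in H3K4me1, with 17269 to 21603 windows. Members with a wild-type peak numbered 0 within 5 kb, 1 within 10 kb, 4 within 100 kb and 1 at a -log10 q of at least 10, in place of 2. The shares of all genes were 7.81%, 10.6%, 36.2% and 12.5%, in place of 25.1%. Members with a mutant peak numbered 5, 5, 5 and 4 in the same order, in place of 5. There the shares of all genes were 28.4%, 34.6%, 66.4% and 38.6%, in place of 56.0%. Of 819 alternative log2 differences of members, 78 changed sign, 41 of them on leaving out a replicate, and none with an adjusted p under 0.05 there (smallest 0.0806, edgeR). With column totals they were Tcf3 -0.035 in H3K4me2 wild type against empty vector, Tcf12 -0.000586 in H3K4me2 wild type against mutant, Tcf12 -0.036 in H3K4me1 wild type against mutant. With chromosome medians (20 CPM) taken out they were Tcf3 -0.021 in H3K4me2 wild type against empty vector, Tcf3 0.00465 in H3K4me2 mutant against empty vector, Tcf3 -0.025, Tcf12 -0.048 in H3K4me2 wild type against mutant, Id2 -0.11 in H3K4me1 mutant against empty vector, Tcf3 -0.00586, Tcf4 -0.028, Tcf12 -0.092 in H3K4me1 wild type against mutant. With median-of-ratios size factors they were Tcf12 -0.00368 in H3K4me2 mutant against empty vector. With DESeq2 they were Tcf12 -0.00393 in H3K4me2 mutant against empty vector. With replicates 2 and 3 only they were Tcf4 -0.047, Tcf12 -0.079 in H3K4me2 mutant against empty vector, Id1 0.17 in H3K4me1 wild type against empty vector, Id3 0.079, Tcf3 -0.16 in H3K4me1 mutant against empty vector. With only the 2 constructs fitted they were Tcf12 -0.012 in H3K4me2 mutant against empty vector, Tcf12 -0.00407 in H3K4me1 wild type against mutant. With the replicate block they were Id1 0.092, Id3 0.000765 in H3K4me1 wild type against empty vector, Id3 0.12 in H3K4me1 mutant against empty vector, Tcf12 -0.00167 in H3K4me1 wild type against mutant. With a batch term they were Id1 0.069, Id3 0.069 in H3K4me1 wild type against empty vector, Id3 0.13, Tcf12 -0.016 in H3K4me1 mutant against empty vector, Id4 0.089 in H3K4me1 wild type against mutant. With chromosome medians (1 CPM) taken out they were Id1 0.00342 in H3K4me1 wild type against empty vector, Id2 -0.043 in H3K4me1 mutant against empty vector, Tcf12 -0.023 in H3K4me1 wild type against mutant. With the empty-vector libraries kept separate they were Id1 0.065, Id3 0.046 in H3K4me1 wild type against empty vector, Id3 0.17 in H3K4me1 mutant against empty vector, Tcf12 -0.00124 in H3K4me1 wild type against mutant. With TMM they were Id3 0.22 in H3K4me2 over IgG. Leaving out each replicate changed the sign of some differences. In H3K4me2 wild type against empty vector the ranges were -0.051 to 0.10 for Tcf3, -0.58 to 0.19 for Id3. In H3K4me2 mutant against empty vector the ranges were -0.21 to 0.51 for Id3, -0.12 to 0.10 for Tcf4, -0.17 to 0.12 for Tcf12. In H3K4me2 wild type against mutant the ranges were -0.76 to 0.070 for Id3, -0.019 to 0.26 for Tcf12. In H3K4me1 wild type against empty vector the ranges were -0.71 to 0.57 for Id3, -0.041 to 0.16 for Tcf12, -0.077 to 0.25 for Id1. In H3K4me1 mutant against empty vector the ranges were -0.48 to 0.80 for Id2, -0.066 to 0.17 for Tcf3, -0.021 to 0.23 for Tcf4, -0.62 to 0.69 for Id3, -3.63e-06 to 0.14 for Tcf12, -0.59 to 0.022 for Id1. In H3K4me1 wild type against mutant the ranges were -0.032 to 0.15 for Tcf4, -0.69 to 0.48 for Id3, -0.013 to 0.20 for Tcf3, -0.094 to 0.11 for Tcf12, -0.19 to 0.23 for Id4, -0.12 to 0.71 for Id2. In H3K4me1 over IgG the ranges were -0.079 to 0.78 for Id3. For these sign changes the cause was not tested. Depth limits Id4 most, with 13 to 45 reads per methylation library.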
